A study of Homo sapiens with 8 samples.

Results

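The 28S ribosomal RNA is the long RNA of the large ribosomal subunit, and its peaks in aldehyde-reactive probe (ARP) sequencing were mapped here along the mature molecule. Members were all plus-strand peaks of the 8 libraries that overlapped the mature 28S on the 45S precursor reference (RNA45SN1, GRCh38 chromosome 21). The mature 28S (RNA28SN1) is an exonic, non-coding gene of 5066 nt at 8441146 to 8446211, and positions below count from its first base. In all, 616 of 4746 peaks met this rule, and overlapping peaks merged into 183 of 1373 regions. The choice used position and strand, and no measured count. None of the 9 other loci of this RNA in RefSeq, copies or pseudogenes, held a listed peak, and reads from the many rDNA copies cannot be told apart here.

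The 8 libraries formed 4 groups of 2, input and IP of WT and of ALKBH1 KO cells. WT cells were HEK-293, a human embryonic kidney line that the study's methods call HEK293T. ALKBH1 KO cells were made from it with CRISPR-Cas9 and grown out of single sorted cells, so ALKBH1 and any other difference between the lines cannot be told apart. In each line, total RNA was broken to short fragments, mixed with an f5C oligonucleotide and treated with ARP, after which a part was kept as input and the rest was bound to streptavidin beads (IP). Every library, input included, had thus met the probe. The libraries carried UMIs, and a value was the number of unique cDNAs in a peak, called the count below. Summed over all peaks, counts came to 94218 and 98032 (WT input), 194494 and 285539 (KO input), 65413 and 48380 (WT IP) and 53420 and 52137 (KO IP). CPM below is a count divided by this sum and multiplied by 1000000. These sums cover called peaks only. ALKBH1 itself (chromosome 14, 77672404 to 77708023) held 0 listed peaks, so the knockout could not be checked in these values, nor was the cell type, which ribosomal peaks do not mark. The labels number the replicates without saying what separates them, while the study's text calls the ARP samples biological replicates. The p-values measure the spread between these libraries only.

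The 28S rRNA is cut from the 45S precursor in the nucleolus, carries the peptidyl transferase centre, where peptide bonds form, and the sarcin-ricin loop, which translation factors touch. Its conserved core is interrupted by long expansion segments rich in G and C. Human 28S carries 5-methylcytidine (m5C) placed by NSUN5 and NOP2, and ALKBH1 is a dioxygenase that can oxidise m5C to 5-formylcytidine (f5C), whose aldehyde reacts with ARP. In iCLIP-type libraries, a peak marks where cDNAs ended. In fragmented RNA this can be at or beside a position that stopped reverse transcriptase, or at the 5′ end of a fragment. These cannot be told apart in the peak lists.

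Below, 10 stretches that the comparisons turn on are shown in RefSeq and GRCh38 sequence, plus strand, 5′ to 3′, each of 30 nt beginning 10 nt before the region. Capitals mark bases of the region and lower case its flanks. Regions of over 20 nt run on past the end of the stretch.
98 to 113 (chr21:8441233-8441262): acggcgagtgAACAGGGAAGAGCCCAgcgc
146 to 157 (chr21:8441281-8441310): cggggcgcggGACATGTGGCGTacggaaga
313 to 353 (chr21:8441448-8441477): ccaaagcgggTGGTAAACTCCATCTAAGGC
2427 to 2452 (chr21:8443562-8443591): aacagcagttGAACATGGGTCAGTCGGTCC
2738 to 2747 (chr21:8443873-8443902): tctcgctggcCCTTGAAAATccgggggaga
3560 to 3565 (chr21:8444695-8444724): cggggccgcgGTTCCGcgcggcgcctcgcc
3589 to 3625 (chr21:8444724-8444753): ctcggccggcGCCTAGCAGCCGACTTAGAA
3637 to 3647 (chr21:8444772-8444801): atccgactgtTTAATTAAAACaaagcatcg
3768 to 3774 (chr21:8444903-8444932): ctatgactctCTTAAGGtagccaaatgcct
4249 to 4274 (chr21:8445384-8445413): tcagggaggaCAGAAACCTCCCGTGGAGCA

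The 28S took the smallest share of peak counts in the WT IPs and the largest in the KO IPs. It was 15.4% and 15.3% (WT input), 20.8% and 19.8% (KO input), 12.3% and 9.21% (WT IP) and 22.3% and 21.7% (KO IP). The 4 groups did not overlap. In bulk RNA, more signal from 28S and less from other RNAs cannot be told apart by such a share. The group means were 15.4% ± 0.083, 20.3% ± 0.73, 10.7% ± 2.16 and 22.0% ± 0.46 (SD, n = 2). The WT IPs thus differed from the KO IPs by -11.3 percentage points and from their own inputs by -4.63, while the KO IPs lay 1.70 points over theirs. For 2 against 2 libraries the smallest two-sided p of an exact permutation test is 0.333, which each of these differences reached, so none could pass a threshold of 0.05. Wilson 95% intervals, which cover counting error only, of the IPs ran from 12.02% to 12.52% and from 8.95% to 9.47% for WT, and from 21.98% to 22.69% and 21.33% to 22.03% for KO. The WT IP replicates thus lay further apart than counting error.

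These shares depended on which peaks stood in the total and on the ends of the RNA. Within rRNA peaks alone, the 28S share was 36.8% ± 0.041 (WT input), 44.7% ± 0.23 (KO input), 43.0% ± 4.70 (WT IP) and 53.6% ± 1.13 (KO IP; SD, n = 2), so that the WT IPs then lay over their inputs. The KO IPs stayed above the WT IPs. The 28S to 18S ratio of summed counts was 1.44 ± 0.068 (WT input), 1.70 ± 0.0063 (KO input), 1.40 ± 0.33 (WT IP) and 2.32 ± 0.22 (KO IP). Without the first and last 28S regions, chosen for removal after their size was seen, the WT IPs (7.49% ± 1.93) and WT inputs (8.58% ± 0.12) overlapped, while the KO IPs (17.1% ± 0.44) stayed above the KO inputs (12.5% ± 0.42) and above the WT IPs.

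**Figure D1:**
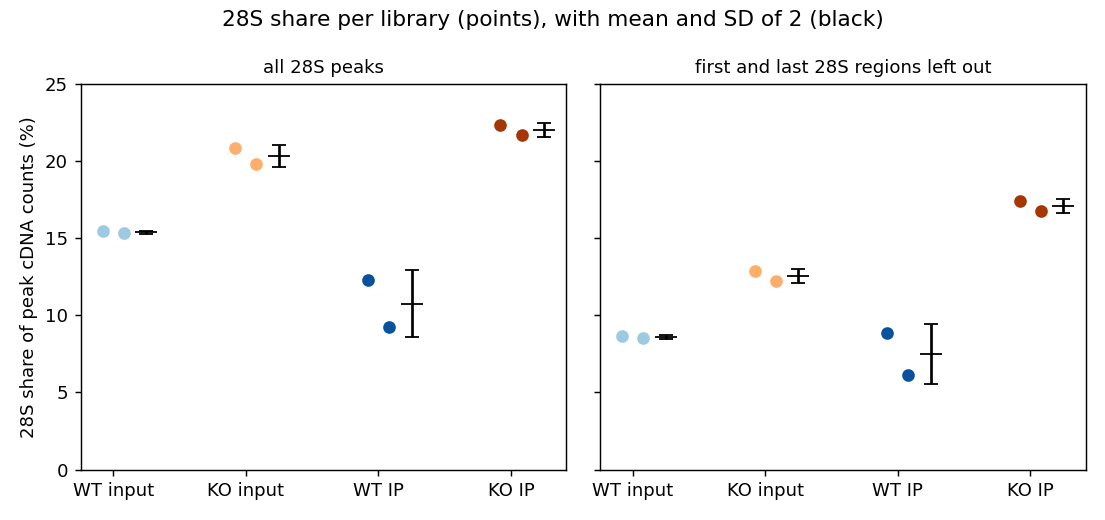
Points give the 28S share of the summed peak cDNA counts in each library in percent, for all 28S peaks (left) and without the first and last 28S regions (right), and black marks give the mean and SD of 2 libraries. The KO IPs are highest in both panels, while both WT IPs lie under the WT inputs in the left panel and overlap them in the right one.

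Peaks covered a small part of the molecule. Covered length was 511 to 544 nt over the 4 inputs and 574 to 659 nt over the 4 IPs, so it differed less between groups than the 28S share did. The counts per covered nt were 28.4 and 29.3 (WT input), 74.5 and 108 (KO input), 12.2 and 7.76 (WT IP) and 20.5 and 18.7 (KO IP). These are not scaled to the summed peak counts, which ran from 48380 to 285539, and so follow them too. The 3 to 6 highest peaks of a library held 50% of its 28S counts. The inputs listed 77 and 78 (WT) and 71 and 69 (KO) 28S peaks, and the IPs 109 and 64 (WT) and 77 and 71 (KO). WT IP replicate 1 stood apart: 32 of the 71 regions that were listed in a single library were listed in it alone. Within the WT IPs, 48 of 109 regions were in both libraries, against 50 of 82 (KO IP), 48 of 76 (WT input) and 50 of 70 (KO input).

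How low the listed 28S peaks reached also differed, although the lowest count listed for any peak was 10 in every library. The lowest 28S count was 10 in both WT IPs, 16 and 18 in the KO IPs and 22 to 95 across the inputs, which was between 153 and 345 CPM. The WT IP lists thus reached lower 28S counts than the KO IP lists, so regions above 345 CPM are also counted below.

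**Figure D2:**
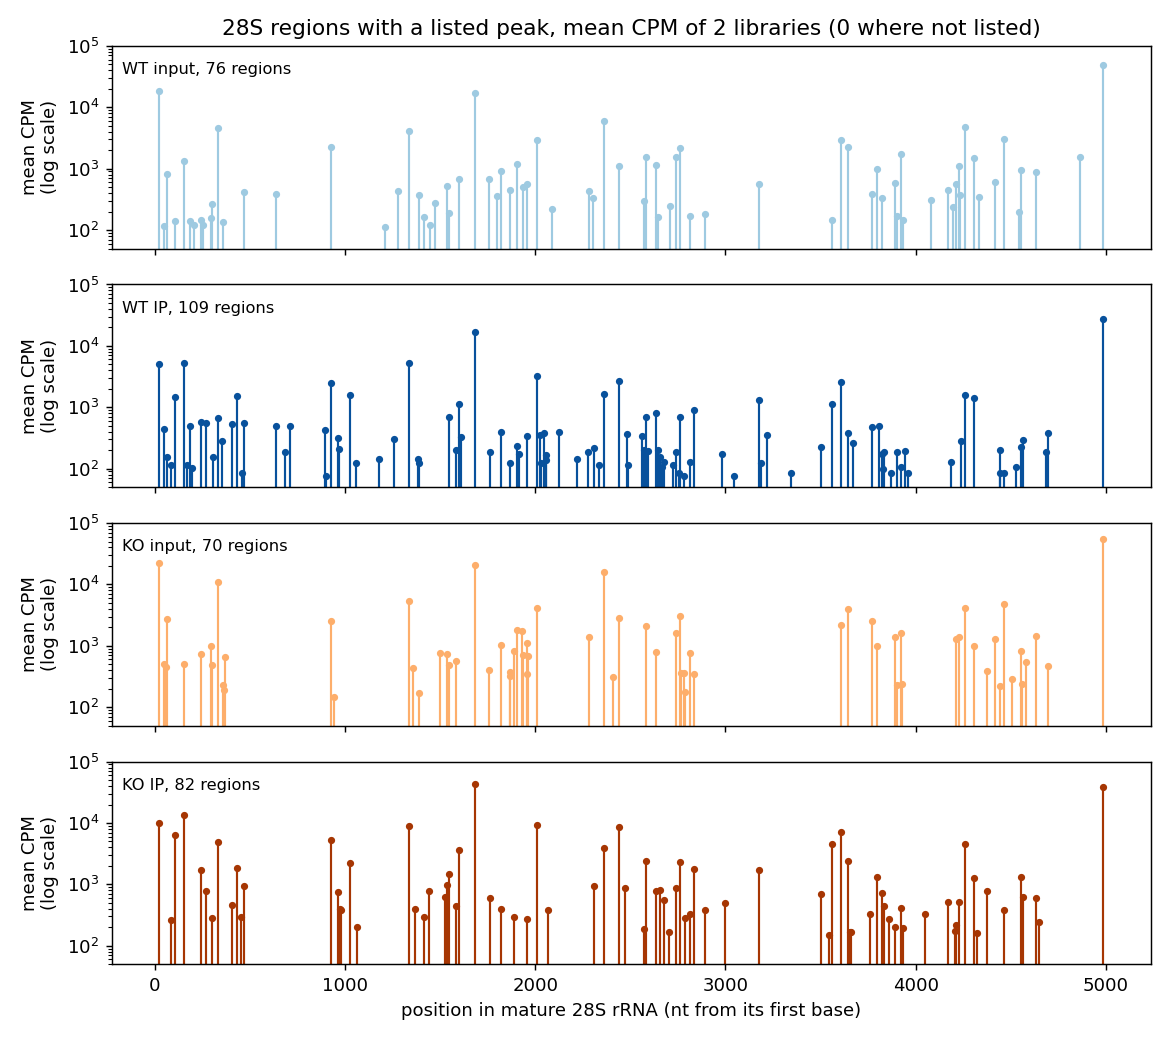
Each stem is a 28S region, placed at its midpoint along the mature RNA in nt, and its height is the mean CPM of 2 libraries on a log scale, with 0 where a library lists no peak. The same tall stems, at both ends and near 1618 to 1750, stand in all 4 panels, and the WT IPs add many low ones.

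Both ends of the mature RNA held large peaks. The first region, from -4 (0 being the base before the first) to 46, and the last, from 4920 to 5053, together held 44.1% ± 0.48 (WT input), 38.2% ± 0.15 (KO input), 30.6% ± 3.96 (WT IP) and 22.4% ± 0.35 (KO IP; SD, n = 2) of the 28S counts. The end regions thus weighed most in the inputs and least in the KO IPs, with no overlap between groups. The last region was the largest of the map in 6 of 8 libraries, with counts of 4617 and 4902 (WT input), 11032 and 15411 (KO input), 1898 and 1250 (WT IP) and 2126 and 2017 (KO IP). In the KO IPs, region 1618 to 1750 was larger, with 2167 and 2320. That region merged up to 7 peaks of a library, and had 1604 and 1683 (WT input), 4229 and 5849 (KO input) and 1099 and 795 (WT IP).

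Along the RNA in windows of 500 nt, the share of the 3′ windows was smaller in the IPs and that of the windows between 501 and 2000 larger. Window 4501 to 5000, where the last region falls by its midpoint, held 34.5% ± 0.66 (WT input) and 26.8% ± 1.74 (WT IP), against 29.1% ± 0.22 (KO input) and 19.1% ± 0.17 (KO IP; SD, n = 2). Window 4001 to 4500 held 8.70% ± 0.73 and 3.46% ± 0.35 in WT and 7.17% ± 0.30 and 4.07% ± 1.23 in KO, input first. Both windows were lower in the IPs of both lines with no overlap. Window 1501 to 2000 was higher in the IPs, with 15.4% ± 0.27 and 19.8% ± 1.77 in WT and 16.5% ± 0.13 and 23.3% ± 2.56 in KO. The GC-rich windows 501 to 1000 and 1001 to 1500 (82.8% and 79.6% G and C) were small but also higher in the IPs: the former held 1.74% ± 0.11 and 4.399% ± 0.00018 in WT and 1.33% ± 0.25 and 3.13% ± 0.89 in KO, and the latter 3.64% ± 0.24 and 7.09% ± 0.499 in WT and 3.28% ± 0.19 and 5.85% ± 1.09 in KO. No test was run on windows, whose shares sum to a fixed total and so cannot move freely.

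**Figure D3:**
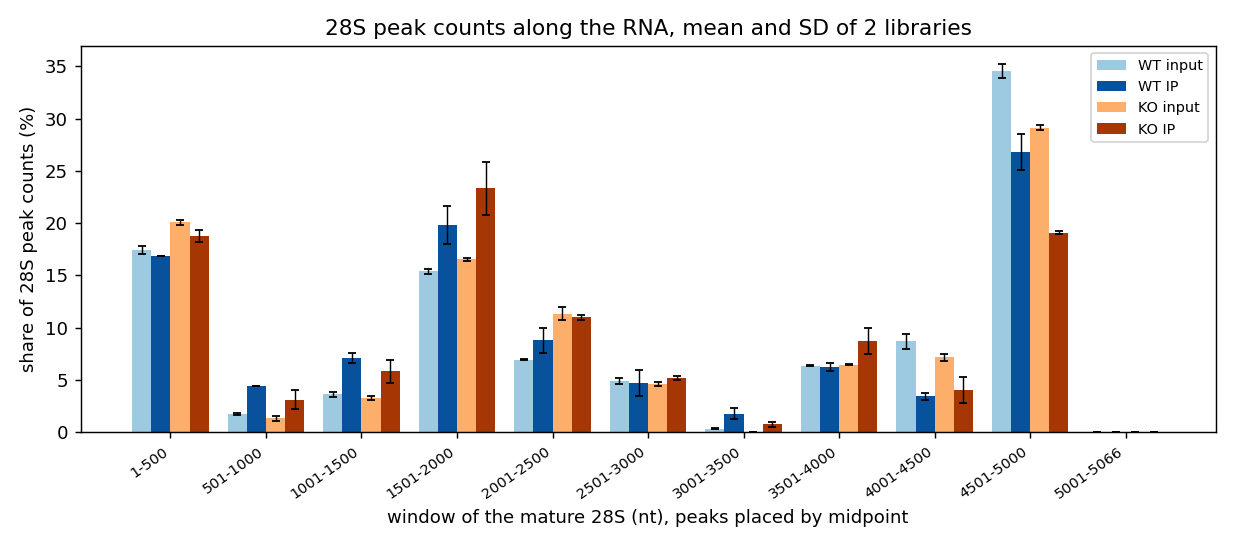
Bars give the share of a library's 28S peak counts (percent, mean and SD of 2 libraries) in consecutive 500 nt windows of the mature RNA for the 4 groups, each peak placed by its midpoint. The IP bars are lower than the input bars of the same line from 4001 to 5000 and higher from 501 to 2000, and the last, short window holds 0% because the 3′ end peak has its midpoint before it.

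Stretches with no peak in any library were GC-rich. The longest ran from 713 to 894 (182 nt, 85.7% G and C), followed by 4702 to 4863 and 470 to 631 (162 nt each), 3348 to 3500 (153 nt) and 3218 to 3345 (128 nt). The whole 28S is 69.4% G and C, bases inside regions 56.0% and bases outside them 73.4%. Covered bases were less GC-rich in the inputs (48.2% to 51.9%) than in the IPs (54.1% to 59.0%), with no overlap between the 4 inputs and the 4 IPs. Among the IPs they were higher in WT (58.0% and 59.0%) than in KO (54.1% and 57.2%). Base composition and the cDNA counts share the same regions, so this is a description of the map.

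The 3 landmarks below were located by their letters on the plus strand, each with 1 match. The letters ACGAGAGGA of the sarcin-ricin loop lay at 4599 to 4607, and no region overlapped them. The nearest, 4578 to 4579, ended 20 nt away and was listed in the KO inputs alone, with counts of 104 and 159. The letters CGATGTCGG of the peptidyl transferase loop lay at 4444 to 4452 and overlapped a region of 2 nt with a count of 11 in WT IP replicate 1 alone. The letters CTTAAGGTA, within the recognition site of the homing endonuclease I-PpoI, lay at 3768 to 3776 and overlapped region 3768 to 3774. It held 29 and 47 (WT input), 448 and 786 (KO input) and 38 and 18 (WT IP), and the KO IPs listed no peak there. It was therefore high in the KO inputs and absent from the KO IP lists, while the WT IPs and WT inputs overlapped in CPM (581 and 372 against 308 and 479). The WT IP peak at 3769 to 3771 overlapped no WT input peak, so these sums join peaks on different bases. The positions methylated by NSUN5 and NOP2 were not located here.

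The effect of the pulldown was read first within WT cells. Of the 28S regions, 23 had a peak in all 4 WT libraries, and the edgeR quasi-likelihood test, fitted on all 243 such regions of both lists, called 12 of them: 2 higher and 10 lower in the IP (Benjamini-Hochberg adjusted p under 0.05). Over all 243 regions, 48.1% were called, 23.0% higher and 25.1% lower. The share of 28S regions called was thus near that background, and the median log2 fold change of -0.26 was near the -0.17 of all regions. Scaled to the summed 28S counts in place of TMM, 4 were higher and 7 lower, against 75 higher and 38 lower of the 243.

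Among the tested regions, 2738 to 2747 had the largest drop in the WT pulldown, with 1656 and 1499.5 CPM as input against 153 and 227 as IP (log2 fold change -3.13 ± 0.30, SE; edgeR adjusted p = 0.00183). Its IP counts, 10 and 11, were at or beside the lowest value listed, so this ratio rests on few cDNAs. Region 4460 to 4473, at 2919 and 3234 CPM as input, was listed at 168 in 1 WT IP and not in the other, and so was not tested. Regions 313 to 353 (-2.80 ± 0.43, adjusted p = 0.0081), 3637 to 3647 (-2.65 ± 0.22, 0.00162), 2338 to 2386 (-1.95 ± 0.20, 0.00226) and the first region (-1.93 ± 0.094, 0.000802) also fell. The value of 313 to 353 was -3.61 without WT IP replicate 1 and -2.07 without WT IP replicate 2. The last region fell by 0.92 ± 0.074 (adjusted p = 0.00147). The 2 tested regions that rose were 146 to 157 and 3173 to 3175. Region 146 to 157, listed whole in the IPs but as 148 to 150 and 156 to 157 in the WT inputs, had 1337 and 1316 CPM as input and 5901 and 4568 as IP (log2 fold change 1.91 ± 0.17, adjusted p = 0.00165). In KO it was listed at 1008 CPM in 1 input and not in the other, and at 14583 and 12467 as IP, so it was high in the IPs of both lines but could not be tested in KO. Between the IPs it was lower in WT (-1.11 ± 0.17, adjusted p = 0.00107). Region 3173 to 3175, which lies in the most GC-rich 500 nt of the map, rose by 1.19 ± 0.30 (adjusted p = 0.0339).

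In KO cells the pulldown moved 28S regions both ways. Of 25 regions with a peak in all 4 KO libraries, 8 were higher and 9 lower in the IP (edgeR, adjusted p under 0.05), and of the 246 regions tested in all, 56.5% were called, 25.6% higher and 30.9% lower. Median log2 fold changes were 0.14 (28S) and 0.04 (all regions). Among them, 4460 to 4473 fell most, from 4761 and 4787 CPM to 318 and 441 (log2 fold change -3.75 ± 0.21, adjusted p = 7.35e-05). It lies downstream of the peptidyl transferase loop letters. Regions 3922 to 3924 (-2.08 ± 0.24, adjusted p = 0.00062) and 2338 to 2386 (-2.07 ± 0.17, 0.000199) followed. Of the tested regions, 3589 to 3625 rose most, from 1949 and 2381 CPM to 8068 and 6291 (log2 fold change 1.64 ± 0.18, adjusted p = 0.000492). Regions 1544 to 1546 (1.52 ± 0.29, adjusted p = 0.00481) and 2427 to 2452 (1.504 ± 0.16, 0.00043) also rose.

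Regions that could not be tested because a group lacked peaks were counted. The IPs alone held 3 regions, listed in all 4 IPs and in none of the inputs: 268 to 269, 425 to 434 and 1018 to 1034. Their counts were 23 to 42, 77 to 105 and 46 to 168 across the IPs, and all lay above 345 CPM, the highest of the lowest 28S values. None of them was called between the WT and KO IPs by the edgeR test (log2 fold change WT over KO -0.19 ± 0.32, -0.0023 ± 0.27 and -0.20 ± 0.49), and with these errors smaller differences could not be detected. The reverse pattern, all 4 inputs and no IP, held for 2 regions, 1937 to 1938 (47, 51, 130 and 215, WT first) and 4418 to 4420 (50, 68, 255 and 357). Neither pattern was counted over all regions, so whether either is particular to 28S was not tested.

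Between the IPs, 28S regions that all 4 libraries listed were mostly lower in WT than in KO. Of 28 regions with a peak in all 4 IPs, 0 were higher and 19 lower in WT (edgeR, adjusted p under 0.05), while of the 220 regions of both lists 37.3% were called, 18.6% higher and 18.6% lower. At an unadjusted p under 0.05, 20 of the 28 passed, against 100 of the 220. DESeq2 also called 0 higher, with 18 lower, against 23 higher and 31 lower of the 220. With 45S peaks summed in fixed bins of 100 nt in place of merged regions, 0 of 28 bins of 28S were higher and 9 lower. Of all 222 features in that fit, 28 were higher and 22 lower. With regions that a library did not list set to 0, of 145 regions 6 were higher and 24 lower in WT, and 77 had a value below 0. Of all 720 regions there, 68 were higher and 42 lower, and 292 lay below 0. The median log2 fold change of WT over KO was -1.10 for the 28S regions and 0.03 for all regions, and it was -0.64 for the 11 regions of 18S, of which 1 was higher and 5 lower. Below 0 lay 26 of the 28 regions; the exceptions were 2633 to 2641 (0.32 ± 0.44) and 4300 to 4318 (0.43 ± 0.61), neither called. Scaling to the summed 28S counts removes a shift shared by the whole RNA. It moved the median of all regions to 0.82, with 83 of the 220 called higher and 6 lower. Of 28S it left 4 regions lower: 98 to 113, 313 to 353, 3560 to 3565 and 3637 to 3647.

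Region 98 to 113 was close to absent from the inputs, with a count of 28 in WT input replicate 2 and no peak in the other 3. The WT IPs held 111 and 61 and the KO IPs 396 and 268, or 1697 and 1261 against 7413 and 5140.3 CPM. The KO IPs were higher without overlap (log2 fold change WT over KO -1.82 ± 0.25, adjusted p = 0.000734). The peak was also wider in KO, 98 to 113 and 98 to 112 against 109 to 113 and 110 to 112 in WT, so the sums cover different lengths. Region 3560 to 3565 shared the pattern, with 27 in WT input replicate 1 alone, IP counts of 99 and 38 in WT and IP counts of 257 and 230 in KO (-1.73 ± 0.31, adjusted p = 0.00255). There the KO peaks (3562 to 3564) were no wider than the WT ones.

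Region 313 to 353 held 64 and 18 counts (WT IP) and 249 and 260 (KO IP; log2 fold change -2.54 ± 0.38, adjusted p = 0.00107). It was -3.44 without WT IP replicate 1 and -2.01 without WT IP replicate 2. Its listed peaks did not cover the same bases, being 326 to 327 with 333 to 335, and 332 to 334, in WT but 314 to 327 and 313 to 327 in KO. The WT inputs (428 and 451) and KO inputs (2236 and 2971) were listed from 314 on. Region 3637 to 3647, 9.09% G and C, had WT IP counts of 28 and 16, at 3645 to 3646 and 3645 to 3647, and KO IP counts of 133 and 125 at 3640 to 3647 (-2.41 ± 0.31, adjusted p = 0.000491). In both regions the WT IP peaks were fewer in counts and shorter. Region 2738 to 2747 (-1.94 ± 0.36, adjusted p = 0.00289) had 10 and 11 against 50 and 41, the WT peaks being 2 and 3 nt wide and the KO peaks 5 and 4 nt.

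The 2 large inner regions were also lower in WT. Region 1618 to 1750 had 16801 and 16432 CPM (WT IP) against 40565 and 44498 (KO IP; log2 fold change -1.10 ± 0.10, adjusted p = 7.37e-05), at the median of the 28S. Region 2338 to 2386 had a log2 fold change of -1.01 ± 0.27 (edgeR adjusted p = 0.0178). Region 1322 to 1346 had 5718 and 4754 against 9098 and 8957 (-0.53 ± 0.15, adjusted p = 0.0251). The values of the ends lay nearer to 0 than the median, with -0.76 ± 0.14 (adjusted p = 0.00255) for the first region and -0.26 ± 0.11, which was not called, for the last.

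**Figure D4:**
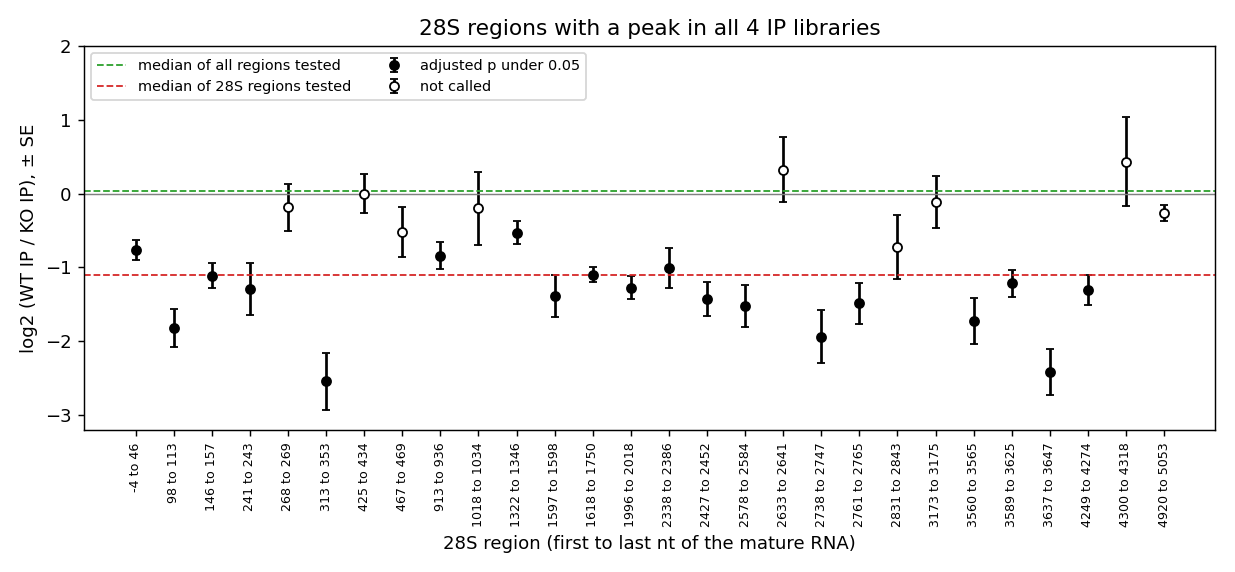
Each point is the log2 fold change of WT IP over KO IP (TMM, edgeR) with its SE for a 28S region with a peak in all 4 IPs, in order along the RNA, filled where the adjusted p was under 0.05. Filled points all lie below 0, and the red dashed 28S median (-1.10) lies under the green dashed median of all regions (0.03).

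Peaks of one line's IPs with no peak in the other's were more numerous in WT but weaker. Regions listed in both WT IPs and neither KO IP numbered 17, of which 12 had no input peak either. Those in both KO IPs and neither WT IP numbered 12. Of these, 4 and 12 lay above 345 CPM in both libraries. The WT IPs listed more peaks in all (568 and 414) than the KO IPs (402 and 371). No such count over all regions stands beside these numbers, so whether they are particular to 28S was not tested. When peaks at or under 345 CPM were disregarded in the other line too, the numbers were 4 and 14. The order of the lines thus turned with this limit, which is the highest of the lowest 28S values seen and no limit of listing. The 17 WT regions were short (2 to 7 nt, median G and C 66.7%), as were the 12 KO regions (2 to 6 nt, 66.7%). The highest counts of this kind were all in the KO IPs: region 3794 to 3799 had 82 and 57, 1523 to 1524 had 66 in replicate 2 alone, 2469 to 2472 had 64 and 28, and 1535 to 1536 had 59 and 45. Of these, 3794 to 3799 (89 to 283) and 1535 to 1536 (46 to 265) were also listed in all 4 inputs.

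A filter after the study's criteria for enriched peaks was applied to 28S. It asked for a peak in both IPs with a count over 10 that either had no input peak or exceeded the input 1.5-fold in mean CPM. It kept 29 peaks in WT, 19 of them without an input peak, and 37 in KO, 23 without one. Peaks of replicate 1 were counted, and several can overlap 1 broad peak of replicate 2, so the 37 KO peaks lay in 34 merged regions. At 1620 to 1748, 3 KO peaks shared a replicate 2 peak of 2320 counts, and their ratios to narrower input peaks follow its width. The same holds for the WT peak 1745 to 1748, with 99 counts in replicate 1 and a broad replicate 2 peak of 795. Absent from both IPs of the other line were 15 of the WT peaks and 9 of the KO peaks. The filter is given for 28S only, without a share over all peaks. With the count raised to over 100, 1 WT peak and 12 KO peaks, in 10 merged regions, were kept, and 0 of either were absent in the other line.

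The inputs were compared next, since both lines' IPs are read against them. Of 34 regions with a peak in all 4 inputs, 0 were higher and 14 lower in WT (edgeR, adjusted p under 0.05), against 35.2% called of the 400 regions in all, 15.5% higher and 19.8% lower. At an unadjusted p under 0.05 there were 17 in either direction, against 207 of the 400. DESeq2 called 0 higher and 7 lower, against 40 higher and 24 lower of the 400. For WT over KO input, the median log2 change was -0.42 for 28S, -0.44 for the 22 regions of 18S and -0.0041 for all regions. Scaled to the summed 28S counts, 4 were higher and 4 lower, against 96 higher and 29 lower of the 400. Without WT input replicate 2, KO input replicate 1 or KO input replicate 2 the 28S median was -0.48, -0.37 or -0.52. Without WT input replicate 1 it was -0.43. The medians of all regions were then -0.05, -0.02, -0.08 and -0.09. Each such fit holds 1 library of a group, so its calls are not counted here.

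Region 3768 to 3774 had the largest difference between the inputs, with 308 and 479 CPM in WT against 2303 and 2753 in KO (log2 fold change -2.63 ± 0.24, adjusted p = 0.0149). Region 60 to 72 had 55 and 105 counts against 496 and 830 (-1.68 ± 0.30, adjusted p = 0.0263), and among the IPs it was listed by WT replicate 1 alone (20). Regions 2427 to 2452 (-1.33 ± 0.31, adjusted p = 0.0403), 2338 to 2386 (-1.32 ± 0.090, 0.0109) and 313 to 353 (-1.22 ± 0.12, 0.0149) were also lower in WT. In the last of these the KO inputs were higher with no overlap, as the KO IPs were.

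Whether the pulldown acted unequally in the lines was tested by the interaction, the IP to input ratio of WT over that of KO, in the 17 regions with a peak in all 8 libraries. The edgeR test called 0 higher and 7 lower, that is, with a lower ratio in WT, against 30.1% of the 186 regions in all, 19.9% higher and 10.2% lower. At an unadjusted p under 0.05, 9 of the 17 passed, against 74 of the 186. DESeq2 called 0 higher and 11 lower, against 18 higher and 34 lower of the 186. The median was -0.66 for 28S, -0.03 for the 9 regions of 18S and 0.04 for all regions. With summed peak counts as library sizes the median of all regions moved to -0.34 and that of 28S to -1.03. There 12 regions of 28S were called, all lower, against 21 higher and 48 lower of the 186. Scaling to the 28S sum left 4, all lower, against 37 higher and 6 lower of the 186. Without WT IP replicate 1 the 28S median was -1.03, and without WT IP replicate 2 it was -0.58.

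The 5 largest interactions among the called regions were 2738 to 2747 (-1.80 ± 0.37, edgeR adjusted p = 0.00934), 3589 to 3625 (-1.54 ± 0.26, 0.00454), 3637 to 3647 (-1.49 ± 0.30, 0.00934), 4249 to 4274 (-1.38 ± 0.20, 0.0021) and 2578 to 2584 (-0.995 ± 0.27, 0.0287). The first 4 were also the regions called with the 28S sum as library size. They differed in what happened in each line. Region 4249 to 4274 had 4850.4 and 4815 CPM as WT input and 1575 and 1550.2 as WT IP (log2 fold change -1.69 ± 0.13), against 4324 and 4087 and then 4511 and 4680.0 in KO (0.03 ± 0.15). Region 3589 to 3625 was not called in WT (-0.26 ± 0.18) and rose in KO (1.64 ± 0.18). Regions 2738 to 2747 and 3637 to 3647 fell in both lines, with -3.13 ± 0.30 and -2.65 ± 0.22 in WT and -0.997 ± 0.24 and -0.81 ± 0.16 in KO. The 2 that had the least difference, 4300 to 4318 (-0.01 ± 0.86) and 4920 to 5053 (0.02 ± 0.16), were known with very unequal precision.

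The 3589 to 3625 and 4249 to 4274 regions were merged from peaks of different extents. In the KO IPs 4249 to 4274 was a single peak of 26 nt, while the WT IPs listed a peak at 4249 to 4251 (33 and 18) and further ones from 4267 or 4268 on (15 and 55 in replicate 1, 57 in replicate 2). The inputs of both lines also listed it as separate peaks. At 3589 to 3625, 1 WT IP and 1 KO IP listed a single broad peak, and the other of each line 2 peaks. A library that lists a broad peak also counts the cDNAs between the short ones, and how much of each difference came from that was not tested.

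**Figure D5:**
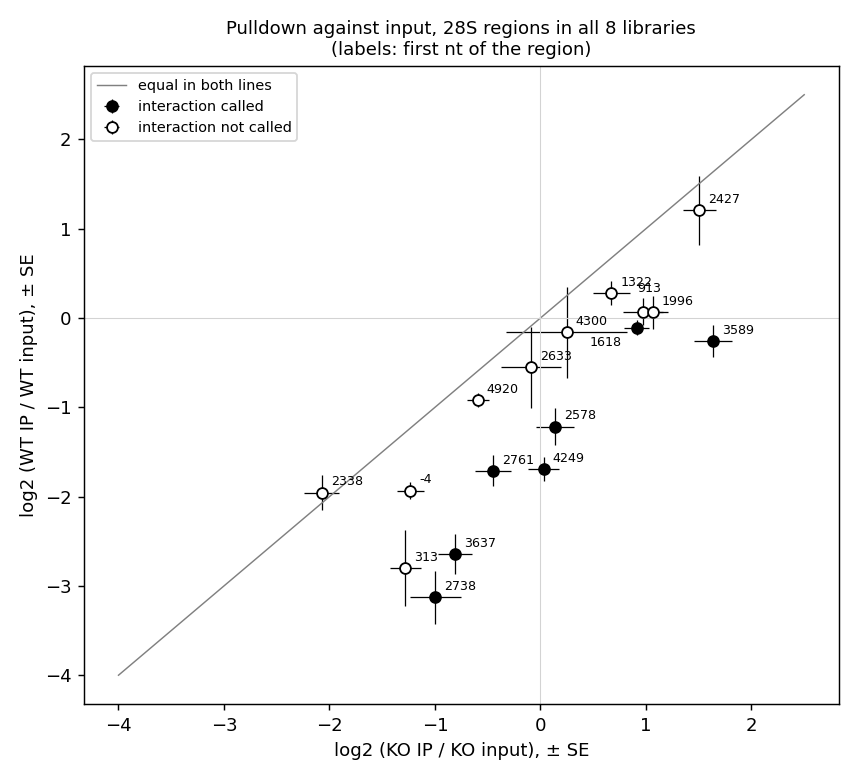
The log2 fold change of IP over input in WT (vertical) is set against that in KO (horizontal), each with its SE, for the 17 28S regions with a peak in all 8 libraries, and labels give the first nt of the region. Filled points, where the interaction was called, all lie under the line of equal change, and 1 of 17 points, region 2338 to 2386, lies above it. The single fit over all 8 libraries, scaled over other regions, placed 14 of 17 below 0.

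The regions the pulldown raised and lowered in KO cells differed in median base composition, but their ranges overlapped. The 8 raised regions had a median of 56.3% G and C (33.3% to 100%), the 9 lowered ones 42.9% (9.09% to 60.4%). For the 8 not called it was 40.4% (16.7% to 61.5%). These medians weigh each region equally, whatever its width. In WT the 2 raised had 79.2%, the 10 lowered 50.9% and the 11 not called 48%. Cytidine, the base that ARP-reactive f5C derives from, made up 33.4% of the whole 28S. In KO its median was 27.5% in the raised, 20% in the lowered and 17.4% in the regions not called. In WT these were 58.3%, 22.5% and 26.3%, and the 2 raised regions included 3173 to 3175, 3 nt of cytidine alone. The 7 regions with a lower ratio in WT had a median of 54.9% G and C and the 10 others 48.4%. Their median cytidine was 20% against 26.6%. These values describe the regions and carry no test.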

How the data were processed

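Reads were processed by the authors on iCount (consensus mapping). UMIs identified PCR duplicates, STAR placed reads first on tRNA and rRNA and then uniquely on GRCh38, and Paraclu with default settings called peaks library by library. The deposited files give a count of unique cDNAs per peak, which the authors did not normalize. Here, BED starts were taken as counted from 0, peaks that shared at least 1 nt of a strand were merged across libraries, and a region's counts were summed per library. A region was tested where all libraries compared listed it, with edgeR 4.0.16 under R 4.3.3 (TMM, quasi-likelihood, two-sided, Benjamini-Hochberg over the regions of both deposited lists). Each fit held the 2 groups compared, and the interaction fit all 4. An SE is the log2 fold change divided by the square root of F. Alternatives were DESeq2 1.42.0, other scalings, filters and bins, the replicate block and leaving out a library.

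Named regions were the 5 largest called changes per comparison, the 5 highest by mean CPM, both ends, those at 3 landmarks, and the 5 highest IP peaks that the other line's IPs lacked. Others were named, after their values were seen, where a count of 5 or fewer was given or a pattern described. Members and lists were chosen with earlier results of these data known. Sequence was read from GRCh38 at RefSeq coordinates. Depth before peak calling is unknown, and the spike-in was not analysed here. A count below the lowest listed one cannot be told from 0, and intervals cover counting error only. Figures used Python 3.11.15 and matplotlib 3.10.9, and exact tests scipy 1.17.1.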

Additional observations from a re-analysis of the deposited data

Results flagged for a closer look

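For 7 regions of 28S the edgeR interaction test (adjusted p under 0.05) found that the IP to input ratio differed between the lines, with log2 of the WT ratio over the KO ratio of -0.67 at 1618 to 1750, -0.995 at 2578 to 2584, -1.80 at 2738 to 2747, -0.91 at 2761 to 2765, -1.54 at 3589 to 3625, -1.49 at 3637 to 3647 and -1.38 at 4249 to 4274. The ratio was lower in WT in each.

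A minus-strand peak beginning at position 1076 of the 28S was not among the 28S regions above, which are plus-strand. Its IP counts were 90 and 71 (WT) and 69 and 70 (KO), or 1292 to 1468 CPM. Of the inputs, 1 WT library listed 15, the other WT library no peak, and the KO libraries 57 and 92, or at most 322 CPM. The IPs were higher than the inputs in both lines without overlap, and the peak was wider in the KO inputs (1076 to 1176) than in the IPs (ending at 1086 or 1087). The peak entered the KO pulldown and IP fits among all regions, but its fitted values are not given here. In WT the difference was not tested, since 1 input listed no peak.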

How the results depend on the processing

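Each number here counts 28S regions called unless another unit or set is given. With regions not listed in a library set to 0, the calls were 43 (WT pulldown, 19 higher and 24 lower), 55 (KO pulldown, 29 and 26), 30 (IPs, 6 and 24), 4 (inputs, 0 and 4) and 15 (interaction, 1 and 14). Over all regions this gave 97 higher and 93 lower of 914 (WT pulldown) and 75 and 374 of 1146 (KO pulldown). For the rest it gave 68 and 42 of 720 (IPs), 0 and 8 of 1155 (inputs) and 41 and 44 of 1373 (interaction). With the 28S sum as library size the 28S calls were 4 (IPs, all lower in WT), 8 (inputs, 4 higher and 4 lower) and 4 (interaction, all lower). In bins of 100 nt they were 9 (IPs) and 3 (interaction), all lower in WT. Over all 193 features of the interaction fit in bins, 19 were higher and 26 lower. DESeq2 called 7 (inputs) and 11 (interaction). The interaction also gave 11 with RLE factors, 12 with summed peak counts and 11 with a mean count of at least 50. Over all regions these settings gave 33 higher and 32 lower, 21 and 48, and 24 and 32. Leaving out a library leaves 1 in a group, so only 28S medians of log2 fold change are given for it. They ran from -0.69 to -0.07 (WT pulldown), -0.18 to 0.21 (KO pulldown) and -1.21 to -0.82 (IPs). For the inputs they ran from -0.52 to -0.37 and for the interaction from -1.03 to -0.58. The cause of these changes was not tested, beyond the fewer or more regions and libraries each setting holds.

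With the replicate block, 13 (WT pulldown, 3 higher and 10 lower), 17 (KO pulldown, 8 and 9) and 21 (IPs, 0 and 21) were called. For the inputs it was 17 (2 and 15) and for the interaction 8 (0 and 8). Over all regions this gave 65 higher and 71 lower of 243 (WT pulldown), 67 and 75 of 246 (KO pulldown) and 59 and 57 of 220 (IPs). For the rest it gave 111 and 97 of 400 (inputs) and 42 and 28 of 186 (interaction). Same-numbered libraries deviated together with r between -0.044 and 0.495 over 186 regions, and the labels name no shared batch.

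The WT IP minus input share turned to 6.19 points with rRNA as the total and was -1.09 without the ends. The KO one was 8.90 with rRNA, 4.52 without the ends and 0.51 with counts over 100. The WT minus KO input share was -7.88, -3.96 and -6.87 in turn. Leaving out a library gave -6.16 to -3.10, 1.18 to 2.21, -5.46 to -4.42 and, for the IPs, -12.8 to -9.74 points. Leaving out the ends, and the 345 CPM limit below, were chosen after seeing the data.

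With counts spread evenly over a peak, windows 4501 to 5000 and 5001 to 5066 held 23.4% and 11.2% (WT inputs), 17.8% and 11.3% (KO inputs), 16.6% and 10.2% (WT IPs) and 12.5% and 6.61% (KO IPs). Window 1501 to 2000 held 15.7% and 2001 to 2500 6.58% in the WT inputs, and the latter 10.1% in the KO IPs. This moves the last region over the window border.

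With a count over 100 the filter kept 1 WT and 12 KO peaks, 0 absent from the other line. With an overlap of 50% of each peak 23 and 21 were absent. Above 345 CPM, 4 regions were in both WT IPs and neither KO IP, also with KO IP peaks up to that value disregarded. Of the further values for named regions, 0 reversed direction. These regions were picked as the largest called changes in the same data, so this outcome was likely from the start and is no independent check. With 2 libraries per group and lists that end at 10 counts or more, absence of a peak is no measure of absence of signal.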
